A study of Mus musculus with 14 samples.

Results

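Mitochondrial DNA of the mouse carries 37 genes, and all 37 had an entry in the deposited count table of 57180 genes, where they were taken as the entries whose symbol begins with mt-. They comprise 13 protein genes, 2 ribosomal RNA genes and 22 transfer RNA genes. The measurements came from RNA sequencing of whole liver from 14 littermate mice on normal chow: 6 labelled WT, 4 labelled Pkd1 Het and 4 labelled Pkd1 Homo. Every one of the 14 genotype labels, WT included, also carries the word Cre. The driver of that Cre, the kind of Pkd1 allele, and the sex, age and litter of the mice are not stated in the labels. Each library has a numbered mouse of its own, and the spread between libraries is therefore the spread between mice as labelled. In whole tissue, fewer cells of a type and less RNA per cell cannot be told apart.

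The mitochondrial genome is a small circular DNA present in many copies per cell and inherited from the mother. Each strand is transcribed into long precursors that are cut into separate RNAs, mostly at the transfer RNAs that lie between the other genes. The protein genes encode core subunits of complexes I, III, IV and V of oxidative phosphorylation, and the ribosomal and transfer RNAs serve the mitochondrion's own ribosome. All other subunits, and the enzymes that copy and read this DNA, come from nuclear genes. Liver cells are rich in mitochondria, and these transcripts are abundant in liver RNA. Most of the genes, called main-strand here, are read in the same direction; mt-Nd6 and 8 transfer RNAs are coded on the opposite strand.

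Of these genes, 17 had enough counts to be tested: the 13 protein genes, both ribosomal RNAs and the transfer RNA genes mt-Tm and mt-Tl1. Both transfer RNA sequences are shown because they are the only 2 of 22 that were measurable, with the 3 anticodon bases in capitals (DNA letters, 5′ to 3′, GENCODE M21 transcripts of GRCm38).

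mt-Tm: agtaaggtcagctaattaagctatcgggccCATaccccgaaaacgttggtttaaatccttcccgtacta
mt-Tl1: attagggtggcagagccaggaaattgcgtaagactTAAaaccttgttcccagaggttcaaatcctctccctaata

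A pair of overlaps on the same strand is shown next, since the sequences show how far a read in the overlap could belong to either gene. The 204 bases of mt-Atp8 end in 43 bases, in capitals, that are also the start of mt-Atp6. The last 60 bases of mt-Nd4l end in 7 bases, in capitals, that are also the start of mt-Nd4.

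mt-Atp8: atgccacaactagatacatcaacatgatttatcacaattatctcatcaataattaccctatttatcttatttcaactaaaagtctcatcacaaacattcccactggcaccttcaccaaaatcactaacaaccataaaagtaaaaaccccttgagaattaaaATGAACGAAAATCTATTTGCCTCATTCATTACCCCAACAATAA
mt-Nd4l: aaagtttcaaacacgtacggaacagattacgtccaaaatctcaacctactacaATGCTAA

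Total counts spanned 18573739 (Homo 4) to 40925973 (WT 3). Pkd1, the gene that encodes polycystin 1 and names the genotypes, had 34.7 ± 2.77 CPM (counts divided by the scaled library size) in WT (SD, n = 6), 32.2 ± 3.52 in Het and 25.3 ± 1.51 in Homo (n = 4 each). It fell by 0.46 on the log2 scale in Homo against WT (SE 0.0802, edgeR adjusted p = 0.0246). Hepatocyte markers summed to between 63313 and 88005 CPM in every library. Markers of heart and skeletal muscle, which also hold many mitochondria, summed to at most 1.00 CPM with Myl1 at 0 in all 14 libraries. The 5 brown fat markers summed to between 25.8 and 75.6 CPM, from Elovl3 and Ppargc1a, which liver also expresses. In CPM of all counts (divided by the unscaled library total), Elovl3 had 13.5 to 66.3 and Ppargc1a 8.13 to 21.8. On that scale Ucp1, the defining marker, reached at most 0.0438. WT 1 stood apart from the other libraries in how its mitochondrial counts were made up. It had the highest share of the 14 for 5 of the 15 abundant genes (mt-Nd2, mt-Atp8, mt-Nd4l, mt-Nd5 and mt-Cytb) and the lowest for 5 (mt-Rnr1, mt-Nd1, mt-Co1, mt-Atp6 and mt-Nd3). For mt-Atp6 it was nearly level with Homo 3 (7.179% and 7.180%), and for mt-Nd3 with WT 3 (0.8902% and 0.8903%).

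The share of the liver transcriptome that came from mitochondrial DNA overlapped between the 3 genotypes. It was 11.1% ± 0.841 of all counts in WT (SD, n = 6), 10.6% ± 0.580 in Het and 11.1% ± 0.231 in Homo (n = 4 each). In WT livers the lowest share was 10.1%, the median 11.2% and the highest 12.5%. The 4 Het livers had 10.7%, 9.83%, 11.2% and 10.7%. The 4 Homo livers had 11.4%, 10.9%, 11.0% and 11.2%. All 4 Homo values lay inside the WT range, Het 2 was the lowest of the 14 and WT 1 the highest, and the 3 groups overlapped. The difference of means was -0.00875 percentage points for Homo minus WT, -0.528 for Het minus WT and 0.519 for Homo minus Het. The pooled SDs were 0.679, 0.754 and 0.442 percentage points, so the difference of Homo from Het was slightly larger than its pooled SD and the other differences were smaller than theirs. Without WT 1 the difference was 0.271 for Homo minus WT and -0.247 for Het minus WT. The share is a sum over the set and is given with no test.

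**Figure D1:**
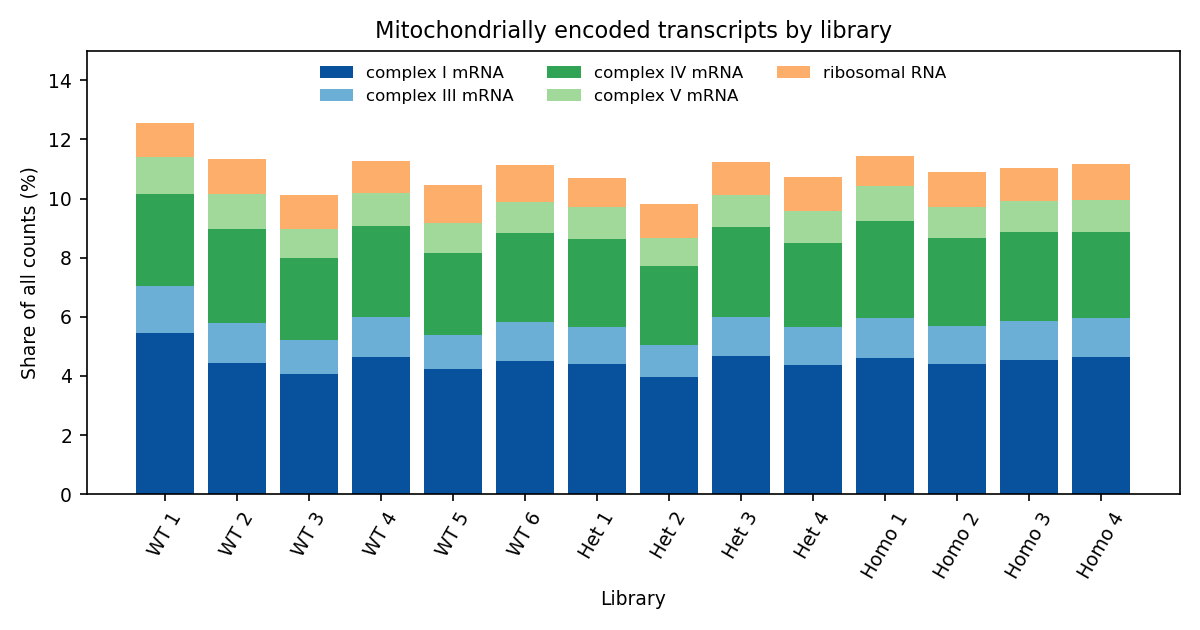
Stacked bars give, for each library on the horizontal axis, the percentage of all counts from the mitochondrial mRNAs of complexes I, III, IV and V and from the 2 ribosomal RNAs. Bar tops run from 9.83% in Het 2 to 12.5% in WT 1. The ribosomal RNA layer makes up 8.91% (Homo 1) to 12.3% (WT 5) of the mitochondrial counts, and complex I 39.2% (WT 2) to 43.5% (WT 1).

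Within the mitochondrial counts, mRNAs dominated and the complexes held similar proportions in the 3 genotypes. Protein genes held 89.5% of the mitochondrial counts on average over the 14 libraries, ribosomal RNAs 10.5% and transfer RNAs 0.00238%. The 7 complex I genes, which encode core subunits of the NADH dehydrogenase, took 40.9% ± 1.44 in WT, 40.9% ± 0.558 in Het and 40.9% ± 0.634 in Homo. Complex III has a single mitochondrial gene, mt-Cytb for cytochrome b, which took 11.8% ± 0.557, 11.7% ± 0.489 and 11.7% ± 0.112 in that order. The 3 complex IV genes for cytochrome c oxidase took 26.9% ± 1.10, 27.1% ± 0.648 and 27.4% ± 1.01. The complex V genes mt-Atp6 and mt-Atp8, for membrane subunits of the ATP synthase, together took 9.75% ± 0.319, 9.83% ± 0.180 and 9.85% ± 0.419. In each case the means of the groups differed by less than the largest of the 3 SDs, and the groups overlapped.

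Levels per length differed among the genes although most are cut from a common precursor. On the scale of CPM of all counts per kb of annotated length (mean ± SD over 14 libraries), mt-Nd4l stood highest at 13150 ± 1822, followed by mt-Co1 at 12827 ± 745, mt-Atp6 at 12250 ± 810, mt-Atp8 at 11951 ± 1588 and mt-Cytb at 11292 ± 1043. The lowest mRNA was mt-Nd6 at 1694 ± 204 CPM per kb, the only protein gene on the opposite strand. Next above mt-Nd6 came mt-Rnr1 at 2694 ± 427 and mt-Nd3 at 3159 ± 270, whose ranges of mean ± SD overlap. The 5 highest genes also overlap in this way. Such overlap compares spreads over libraries and does not give the order of the genes within a library, which was not tested. Neighbouring levels that overlap likewise were those of mt-Nd1 at 8260 ± 464, mt-Co2 at 7989 ± 846 and mt-Nd4 at 7754 ± 534, and those of mt-Co3 at 5730 ± 407, mt-Rnr2 at 5613 ± 375 and mt-Nd5 at 5587 ± 546. mt-Nd2, at 9956 ± 993 CPM per kb, overlapped with mt-Cytb above it. Short genes such as mt-Nd4l (297 bases) are the most sensitive to the length used, since no correction for fragment size was made here.

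**Figure D2:**
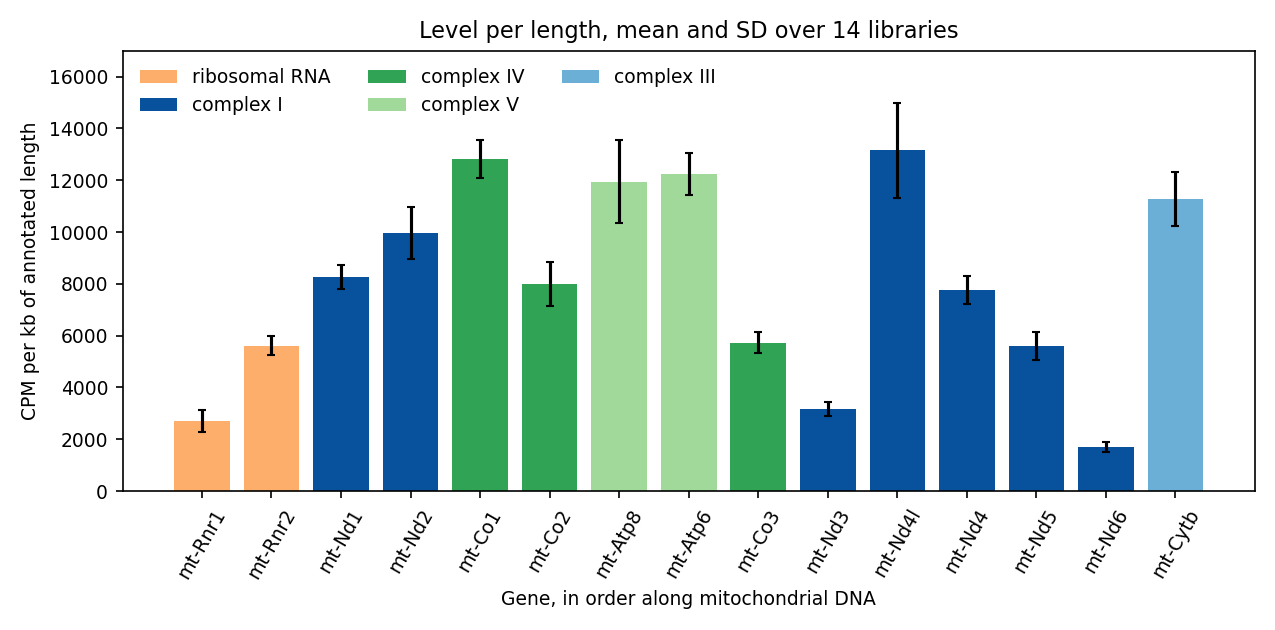
Bars show the mean level of each of the 15 abundant genes in CPM per kb of annotated length, with SD over 14 libraries as error bars and colours by complex. Genes follow their order along mitochondrial DNA, and mt-Nd6 at 1694 CPM per kb is the lowest bar.

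Genes that share a messenger offered a check within each library. mt-Atp8 and mt-Atp6 lie on a common mRNA, and their per-length ratio was 0.975 ± 0.0989 over the 14 libraries, with 1.26 in WT 1 and 0.858 to 1.04 in the other 13. mt-Nd4l and mt-Nd4 also share an mRNA, yet the per-length ratio of mt-Nd4l to mt-Nd4 was 1.69 ± 0.156, from 1.45 to 2.09, again with its highest value in WT 1. mt-Nd6 was at 0.305 ± 0.0363 of the per-length level of its neighbour mt-Nd5. The WT ratios lay between 0.239 and 0.339, the Het ratios between 0.279 and 0.328 and the Homo ratios between 0.265 and 0.380, and the groups overlapped. Whether the authors' counting used strand is not given in the sources used here, and without it reads of mt-Nd6 and of main-strand precursor across it cannot be told apart.

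No mitochondrial gene passed the test in any comparison of genotypes. In the edgeR quasi-likelihood fit over 16201 genes, 0 of the 17 tested genes were called at an adjusted p under 0.05 in Homo against WT, where 0.222% of all genes tested were called (36 genes). The same fit called 0 of 17 in Het against WT, against 0.0556% of all genes (9), and 0 of 17 in Homo against Het, against 0.0309% (5). None of the 17 reached an unadjusted p under 0.05 in any of the 3 comparisons, and DESeq2 also called 0. Groups of CPM values were also compared directly. Non-overlapping groups occurred in 0 of the 17 in each comparison, against 1.15% of all genes in Homo against WT, 1.2% in Het against WT and 2.94% in Homo against Het.

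The fitted folds bound how large a difference these libraries could have held. For the 15 abundant genes the fold of Homo over WT ran from 0.884 to 1.08, and their 95% intervals together spanned 0.709 to 1.28. Folds of Het over WT ran from 0.943 to 1.02, with intervals spanning 0.765 to 1.20. Folds of Homo over Het ran from 0.927 to 1.07, with intervals spanning 0.729 to 1.29. The median log2 fold change of the 17 was -0.04 in Homo against WT, -0.04 in Het against WT and 0.00 in Homo against Het, beside 0.00 over all genes in each. In Homo against WT 6 of the 17 had a fold above 1 and 11 below, in Het against WT 5 and 12, and in Homo against Het 9 and 8. The first pair of comparisons shares the WT libraries, and the genes of a precursor are not independent of each other.

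**Figure D3:**
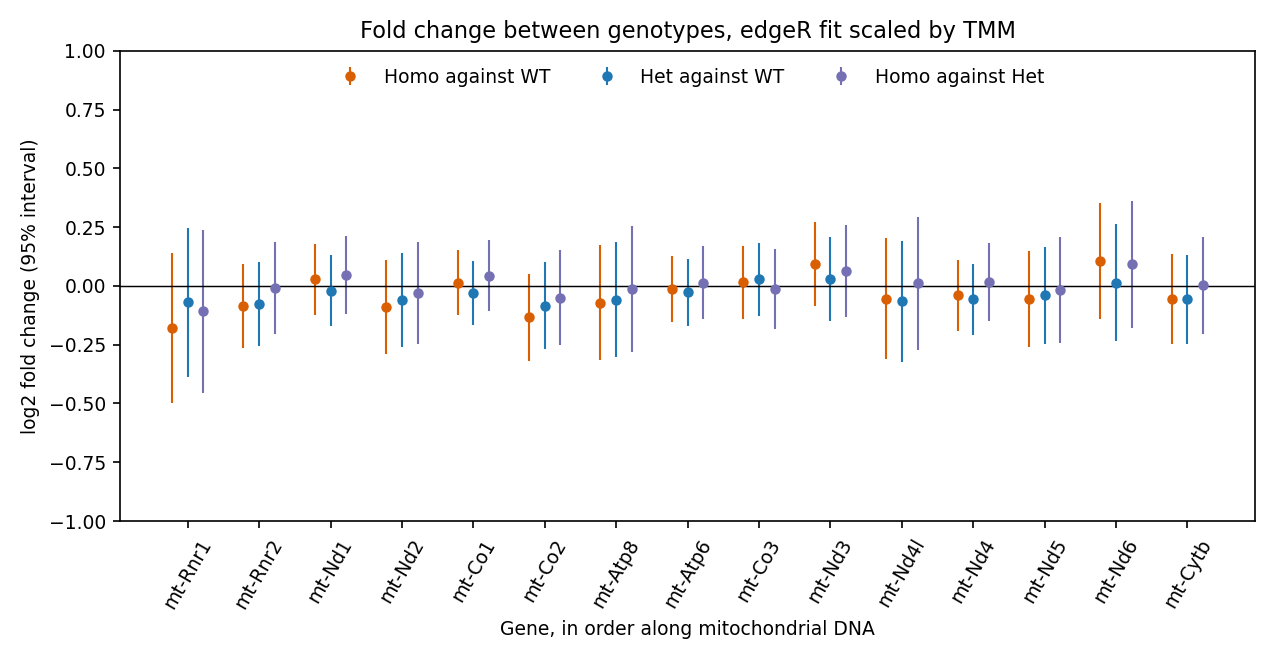
Points are log2 fold changes of the 15 abundant genes from the edgeR fit scaled by TMM (a trimmed mean of M-values scaling between libraries), with 95% intervals as bars and a colour for each comparison. Every interval crosses 0, and the points lie within 0.18 of it.

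The same question was asked of each gene's share within the set, by refitting with the library size set to the sum of mitochondrial counts. On this scale 0 of 17 were called in Homo against WT, where 0.204% of all genes were called, 0 in Het against WT (0.0556% of all genes) and 0 in Homo against Het (0.0247%). Unadjusted p under 0.05 occurred in none of the 17. Folds of the 15 abundant genes ran from 0.902 to 1.10 in Homo against WT, from 0.976 to 1.05 in Het against WT and from 0.922 to 1.06 in Homo against Het. Their 95% intervals together spanned 0.712 to 1.29, 0.774 to 1.24 and 0.712 to 1.26.

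Among complex I genes, mt-Nd3 had the smallest p of the 17 on this scale in Homo against WT. mt-Nd3, a subunit near the quinone-binding region, took between 0.890% and 1.01% of the mitochondrial counts in WT, with a median of 0.978%. It took 1.04%, 0.969%, 1.03% and 0.990% in Het, and 1.07%, 0.970%, 1.08% and 1.08% in Homo. Of the 4 Homo livers, 3 stood above all WT livers, and Homo 2 lay inside the WT range. The fold was 1.09 in Homo over WT (0.986 to 1.21 at 95%, log2 0.13, SE 0.0705, edgeR adjusted p = 1.00). It was 1.05 in Het over WT (0.948 to 1.17) and 1.04 in Homo over Het (0.928 to 1.17). Scaled by TMM it was 1.07 (0.943 to 1.21) in Homo over WT.

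mt-Nd6 had the most variable share of the mRNAs over the 14 libraries, with a coefficient of variation of 11.6%. Its share was 0.700% to 0.877% in WT with a median of 0.756%, then 0.780%, 0.808%, 0.873% and 0.736% in Het, and 0.672%, 0.785%, 1.01% and 0.925% in Homo. The 4 Homo livers included both the lowest and the highest of the 14. The fold in Homo over WT was 1.10 on the within-set scale (0.939 to 1.29, log2 0.14, SE 0.107, edgeR adjusted p = 1.00), and in Homo over Het 1.06 (0.892 to 1.26). Scaled by TMM, the fold in Homo over Het was 1.07 (0.883 to 1.29, log2 0.09, SE 0.127, edgeR adjusted p = 0.983), and without Homo 3 its log2 value was -0.01.

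The other complex I genes are mt-Nd1, mt-Nd2, mt-Nd4, mt-Nd4l and mt-Nd5, membrane subunits of the proton-pumping arm. Their shares in WT, Het and Homo were 7.07%, 7.19% and 7.39% for mt-Nd1, and 9.50%, 9.43% and 9.19% for mt-Nd2. They were 9.74%, 9.65% and 9.74% for mt-Nd4, and 9.27%, 9.31% and 9.18% for mt-Nd5. mt-Nd4l took 3.56%, 3.52% and 3.54%. mt-Nd4 was the steadiest of the 15 abundant genes, with a coefficient of variation of its share of 2.66% over the 14 libraries. mt-Cytb followed at 3.61%.

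In complex IV, mt-Co1 was the most counted mitochondrial gene and mt-Co2 the protein gene with the lowest fold of Homo over WT. mt-Co1, the catalytic subunit, took 15.7% to 18.6% of the mitochondrial counts in WT with a median of 18.1%. It took 18.5%, 17.9%, 18.2% and 17.3% in Het, and 19.6%, 18.0%, 18.2% and 18.0% in Homo. WT 1 was the lowest and Homo 1 the highest of the 14, and the other 12 lay between 17.3% and 18.6%. mt-Co3, a further core subunit, took 3.99% ± 0.326 in WT, 4.2% ± 0.116 in Het and 4.14% ± 0.180 in Homo, with a within-set fold of 1.05 in Het over WT (0.945 to 1.17).

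mt-Co2, the subunit that receives electrons from cytochrome c, took 4.72% to 5.46% in WT with a median of 5.04%. It took 5.18%, 5.06%, 4.78% and 4.84% in Het, and 5.13%, 5.11%, 4.77% and 4.14% in Homo. Homo 4 was the lowest of the 14 and the other Homo values lay inside the WT range. Scaled by TMM, the fold in Homo over WT was 0.911 (0.801 to 1.04, log2 -0.13, SE 0.0872, edgeR adjusted p = 0.997), and in Het over WT 0.943 (0.829 to 1.07, edgeR adjusted p = 0.998).

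Counts of this sequence were divided between mt-Co2 and a nuclear gene of the same letters. Gm28661, a gene chosen for description after its values were seen, has a transcript identical to mt-Co2 over 681 of its 684 bases (GENCODE M21, BLAST). Reads from that stretch cannot be assigned to either gene by sequence, so the split between them depends on how the counting divides them. Gm28661 was given 391 to 7422 counts in WT with a median of 2661, then 6373, 3321, 14854 and 4165 in Het, and 703, 2392, 20949 and 21911 in Homo. Homo 3 and Homo 4 held the highest counts of the 14, and Homo 1 lay near the bottom of the WT range. Of the counts of the pair, Gm28661 took 0.231% to 3.58% in WT, with a median of 1.80%. It took 4.61%, 2.84%, 9.55% and 3.31% in Het, and 0.420%, 1.80%, 13.1% and 20.3% in Homo. The fitted fold of Gm28661 was 5.24 in Homo over WT (1.45 to 19.0, log2 2.39, SE 0.870, edgeR adjusted p = 0.976) and 2.94 in Het over WT (0.825 to 10.5, edgeR adjusted p = 0.998). The first of these passed an unadjusted threshold of 0.05 and not the adjusted one.

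With both genes counted together, the mean share was no longer lower in Homo than in WT, a difference that had not been called for mt-Co2 alone. The pair took 5.17% ± 0.320 of the mitochondrial counts plus Gm28661 in WT, 5.22% ± 0.173 in Het and 5.23% ± 0.147 in Homo, where mt-Co2 alone had 5.08% ± 0.317, 4.97% ± 0.190 and 4.78% ± 0.462. In Homo 4 the value went from 4.14% to 5.14%. A further fit added all 17 nuclear copies described below, each to its best matching mitochondrial gene. The fold of mt-Co2 in Homo over WT was then 0.987 scaled by TMM (0.866 to 1.12) and 1.01 within the set (0.919 to 1.11), where without the copies the within-set fold was 0.941 (0.840 to 1.05). Both ways of summing were added after the data were seen, and whether the split accounts for the lower mean was not tested.

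**Figure D4:**
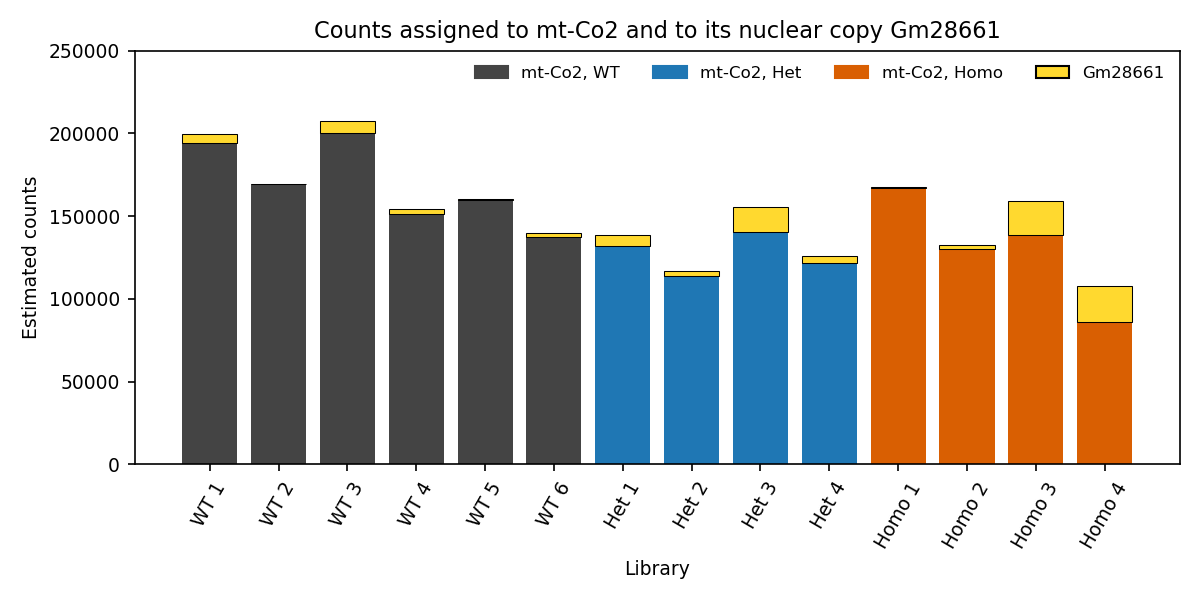
Bars give estimated counts for each library on the horizontal axis, with mt-Co2 coloured by genotype and its nuclear copy Gm28661 stacked in yellow on top. The yellow part is largest in Homo 3 (20949 counts), Homo 4 (21911) and Het 3 (14854).

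Other nuclear copies took few counts. BLAST found 17 nuclear genes of the table that match a mitochondrial gene with at least 90% identity over at least 100 bases, 5 of them at 100%. The other 4 identical copies were Gm28439 (mt-Nd4, over 876 bases), Gm10925 (mt-Atp6, 678), Gm28437 (mt-Co3, 783) and Gm10222 (mt-Nd4l, 294). All 17 together, Gm28661 included, held between 0.0246% and 1.06% as many counts as the mitochondrial genes did. The highest was in Homo 4, where Gm28661 held 21911 of the 22078 counts. After Gm28661, with a mean of 6689 counts per library, the next was Gm28439 with 154.

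In complex V, mt-Atp6, the subunit that forms the proton path, took 7.53% ± 0.288 in WT, 7.62% ± 0.200 in Het and 7.66% ± 0.447 in Homo. mt-Atp8, a small membrane subunit, took 2.23% ± 0.263, 2.22% ± 0.103 and 2.19% ± 0.0789. WT 1 had the highest mt-Atp8 share at 2.72% and the lowest mt-Atp6 share at 7.18%, nearly level with Homo 3.

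**Figure D5:**
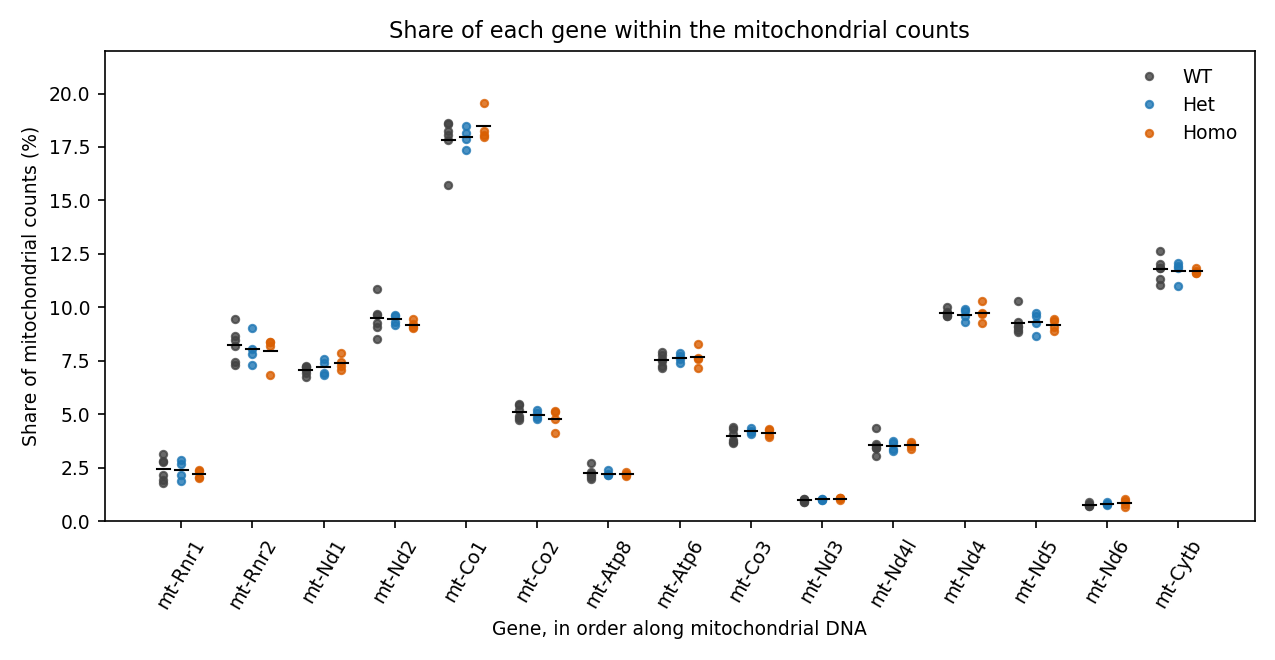
Points are libraries and short lines group means for the share of each abundant gene in the mitochondrial counts, in percent, with WT in grey, Het in blue and Homo in orange. Groups overlap for all 15 genes, and the WT point apart from its group at mt-Co1 (15.7%) is WT 1.

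Of the 15 abundant genes, the share of mt-Rnr1 within the mitochondrial counts varied most between mice. mt-Rnr1, the RNA of the small ribosomal subunit, took 1.79% to 3.15% of the mitochondrial counts in WT with a median of 2.46%. It took 1.87%, 2.66%, 2.15% and 2.86% in Het, and 2.07%, 2.41%, 1.99% and 2.33% in Homo. The WT and Het ranges were wide and the Homo livers fell inside both. mt-Rnr2, the RNA of the large subunit, took 7.28% to 9.44% in WT with a median of 8.34%. It took 7.30%, 9.03%, 7.82% and 8.03% in Het, and 6.84%, 8.37%, 8.19% and 8.39% in Homo. Scaled by TMM, mt-Rnr1 had a fold of 0.884 in Homo over WT (0.709 to 1.10, log2 -0.18, SE 0.149, edgeR adjusted p = 0.997), and mt-Rnr2 0.948 in Het over WT (0.837 to 1.07, edgeR adjusted p = 0.998). The coefficient of variation of its share was 18.3% for mt-Rnr1 and 8.84% for mt-Rnr2 over the 14 libraries, where counting alone would give 0.381% and 0.205%. Per length, mt-Rnr2 was 2.12 ± 0.277 times mt-Rnr1. Both ribosomal RNAs are far more abundant than the mRNAs in mitochondria, while here their per-length levels were below most mRNAs. Whether ribosomal RNA was depleted is not stated in the labels.

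Transfer RNAs were close to absent from the counts. Of the 22 genes, 14 had 0 counts in all libraries, which over 373379681 counts allows up to 0.00803 CPM each, a limit that covers counting error only. A further 6 (mt-Tv, mt-Tw, mt-Tr, mt-Th, mt-Te and mt-Tp) had at most 3 counts in any library. The 8 opposite-strand transfer RNAs were among those that did not pass, and the other 2 of the 22 passed. mt-Tm, the methionine transfer RNA, had 35.0 to 92.0 counts in WT, then 63.0, 52.0, 40.0 and 47.0 in Het, and 92.9, 68.0, 44.0 and 43.0 in Homo. mt-Tl1, a leucine transfer RNA, had 5 to 19 counts in WT, then 12, 9, 11 and 7 in Het, and 11, 3, 9 and 7 in Homo. Both sets of values overlapped between the groups.

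Both measurable transfer RNAs lie against abundant genes on the same strand, a position that is not particular to them. In gene order mt-Tv also lies between mt-Rnr1 and mt-Rnr2, and mt-Tg between mt-Co3 and mt-Nd3, all on the main strand. mt-Tv had at most 3 counts in any library and mt-Tg had 0. Gaps in bases were measured for mt-Tm and mt-Tl1 only. mt-Tm abuts mt-Nd2 with 0 bases between them, and mt-Tl1 abuts both mt-Rnr2 and mt-Nd1. Scaled by TMM, mt-Tm had a fold of 1.21 in Homo over WT (0.837 to 1.76, log2 0.28, SE 0.251, edgeR adjusted p = 0.997) and 1.15 in Homo over Het (0.761 to 1.73). mt-Tl1 had a fold of 1.35 in Het over WT (0.766 to 2.38, log2 0.43, SE 0.383, edgeR adjusted p = 0.998) and 0.734 in Homo over Het (0.389 to 1.38, log2 -0.45, SE 0.430, edgeR adjusted p = 0.981). Within the set the fold of mt-Tm was 1.24 in Homo over WT (0.833 to 1.85), and that of mt-Tl1 was 1.37 in Het over WT (0.755 to 2.49) and 0.728 in Homo over Het (0.373 to 1.42). Counting alone would give a coefficient of variation of the share of 13.1% for mt-Tm and 33.5% for mt-Tl1, where 28.8% and 36.7% were seen.

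Of the nuclear genes listed as transcribing, copying and processing mitochondrial DNA and RNA, 0 were called in any comparison. Over all genes tested, 0.222% were called in Homo against WT, 0.0556% in Het against WT and 0.0309% in Homo against Het. At such shares a short list seldom holds a called gene. Among 10 genes of mitochondrial transcription, 0 were called higher and 0 lower in Homo against WT, where 3 had a fold above 1 and 7 below (median log2 -0.05). Mterf3, a negative regulator of mitochondrial transcription, had 14.8 ± 1.77 CPM in WT and 13.1 ± 1.05 in Homo (edgeR adjusted p = 0.997), and Mterf4, which acts in mitochondrial ribosome assembly, 7.24 ± 1.24 and 7.94 ± 0.820. Among 11 replication genes 0 were called, with 6 folds above 1 and 5 below and a median log2 of 0.00. Primpol, a primase and polymerase, had 4.95 ± 0.380 CPM in WT and 5.71 ± 0.933 in Homo, and Dguok, the deoxyguanosine kinase that supplies mitochondrial nucleotides, 6.72 ± 0.824 and 7.53 ± 0.958.

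Among 19 genes of RNA processing and decay 0 were called in Homo against WT, beside 0.222% of all genes. Of the 19, 7 had a fold above 1 and 12 below (median log2 -0.04). An unadjusted p under 0.05 was found for 3 of the 19 (Prorp, Hsd17b10 and Fastkd2), beside 766 of all 16201 genes. Both genes with the smallest p are subunits of mitochondrial RNase P, which cuts the 5′ ends of transfer RNAs. Prorp, its nuclease, had 8.30 ± 0.731 CPM in WT and 10.2 ± 1.78 in Homo (log2 0.30, edgeR adjusted p = 0.976). Hsd17b10, another subunit, had 87.4 ± 6.37 and 78.8 ± 4.50 (log2 -0.15, edgeR adjusted p = 0.997). Fastkd2, which binds mitochondrial RNA and is named after its values were seen, had a log2 fold change of 0.22 (edgeR adjusted p = 0.997). Of 7 regulators of mitochondrial biogenesis 0 were called, with 2 folds above 1 and 5 below. The transcription factor Nrf1 had 11.2 ± 1.52 CPM in WT and 9.98 ± 1.07 in Homo, and the coactivator Ppargc1b 14.3 ± 4.55 and 17.1 ± 2.22.

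For nuclear subunits of the same complexes, 0 were called in Homo against WT, beside 0.222% of all genes. Folds above and below 1 were 8 and 28 for complex I (36 tested), 3 and 6 for complex III (9), 3 and 7 for complex IV (10) and 6 and 9 for complex V (15). Their medians were -0.05, -0.02, -0.03 and -0.02 on the log2 scale, beside 0.00 for all genes, and an unadjusted p under 0.05 was found for 1 complex I gene and 1 complex III gene. Ndufb4, of complex I, had 35.4 ± 3.95 CPM in WT and 30.5 ± 1.07 in Homo (log2 -0.22, edgeR adjusted p = 0.892), with Homo between 29.2 and 31.8 and WT between 32.2 and 42.3. Uqcrb, of complex III, had 116 ± 4.41 CPM in WT and 103 ± 4.95 in Homo (log2 -0.17, edgeR adjusted p = 0.780), with Homo between 96.2 and 108 and WT between 111 and 123. Their groups did not overlap, as was so for 1.15% of all genes. Ndufv2 had 69.3 ± 2.36 CPM in WT and 64.3 ± 2.48 in Homo, Uqcrc1 132 ± 6.81 and 123 ± 5.09, Cox7c 162 ± 3.96 and 155 ± 9.89, Atp5f1e 41.6 ± 7.09 and 48.1 ± 3.04, and Atp5me 103 ± 6.93 and 95.2 ± 7.39. Cox4i1 had 171 ± 21.2 CPM in WT and 179 ± 3.36 in Homo, with WT 1 at 128 and the other WT libraries between 177 and 184.

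For Het against WT and Homo against Het these 8 nuclear lists also had 0 genes called, beside 0.0556% and 0.0309% of all genes. Het against WT had more folds below 1 than above in 6 of the 8 lists, with medians between -0.07 and 0.01 on the log2 scale. Homo against Het had medians between -0.02 and 0.09. All of these lists were chosen with earlier results of these data known.

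The sum of 6 lymphocyte markers, almost wholly Cd3e (3.95 to 23.4 CPM of all counts), was lower in all WT libraries than in any Het or Homo library. It was 5.56 to 15.4 CPM in WT (lowest in WT 1), 17.2 to 19.5 in Het and 17.8 to 25.4 in Homo. Each other marker of the 6 stayed under 1 CPM of all counts in every library. Of the 3 markers tested, 3 had a fold above 1 in Homo against WT, and 2 above and 1 below in Het against WT. In these comparisons 0 were called, beside 0.222% and 0.0556% of all genes. Single genes had groups that did not overlap in 1.15% and 1.2% of all genes. Kupffer cell markers summed to 174 to 208 CPM in WT, 175 to 206 in Het and 200 to 218 in Homo. Nuclear-retained RNAs, a sign of cell lysis or RNA quality, summed to 7407 to 9733 CPM in WT, 7184 to 10594 in Het and 7519 to 8543 in Homo. The part of these sums in the mitochondrial values was not tested.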

How the data were processed

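Per the labels' protocols, liver RNA was purified by Trizol followed by RNeasy, and NuGen Ovation was the library kit. The deposited values are estimated counts per gene. The submitters' processing notes name STAR, Salmon and the build GRCm39. Tool versions, annotation release, strand use and ribosomal depletion: not given in the sources used here. Between 6.36% and 8.59% of values per library were not whole (tolerance 0.01), and counts were rounded before testing.

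Genes were kept with filterByExpr of edgeR 4.0.16 in R 4.3.3 (count minimum 10, total minimum 15). All 14 libraries (6 WT, 4 Het, 4 Homo, grouped by the genotype label) entered a single two-sided quasi-likelihood fit with TMM scaling. A second fit used the sum of mitochondrial counts as library size. P-values were Benjamini-Hochberg adjusted over all 16201 genes and called under 0.05, and intervals are at 95%. Named genes follow a written rule: all 17 tested members, the 3 smallest p in each comparison, and the 2 smallest p of each nuclear list in Homo against WT. Members and lists were chosen with earlier results of these data known.

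No pair of libraries was identical (closest chi-square per degree of freedom 23.7 of 91 pairs). Strand, order and lengths were read from GENCODE M21, whose build GRCm38 is not that of the table, so no coordinates are given; all 37 genes matched. Copies were sought with BLAST 2.17.0. Counts were also simulated for Homo against WT over 15859 genes, with changes given to nuclear genes only. Of 69 genes with a 1.5-fold change, 36.2% were recovered. At 2-fold it was 58.1% of 62, at 4-fold 94.9% of 59, and 3 of 15669 unchanged genes were called. No change was simulated in a mitochondrial gene, so these rates do not give the power for the tested members. Alternatives covered scaling, filter, DESeq2 1.42.0, the replicate block, the libraries fitted, the denominator and each library left out.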

Additional observations from a re-analysis of the deposited data

Results flagged for a closer look

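Across 34 quantities in 3 genotypes, 102 groups were checked for a library far from the rest of its group, and 6 were found. Chance alone gives about 1 in 20 groups, so the number found is close to what chance gives. The quantities share counts with each other, so the 6 are not independent. WT 1 accounted for 3 of them. Its per-length ratio of mt-Atp8 to mt-Atp6 was 1.26, beside 0.870 to 0.958 in the other WT livers. Its mt-Co1 share of the mitochondrial counts was 15.7%, beside 17.8% to 18.6%, and its mt-Nd5 share was 10.3%, beside 8.84% to 9.29%. Homo 1 accounted for 2. Its mt-Rnr2 share was 6.84%, beside 8.19% to 8.39% in the other Homo livers, and its mt-Co1 share was 19.6%, beside 18.0% to 18.2%. Homo 2 had an mt-Nd3 share of 0.970%, beside 1.07% to 1.08% in the other Homo livers.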

How the results depend on the processing

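Across 89 combinations of an alternative fit and a comparison, 0 of the tested mitochondrial genes were called in each, and the lowest adjusted p was 0.725. All 43 combinations of an alternative and a comparison for the share of all counts stayed within the pooled SD of the main difference. With each library left out in turn, that difference ran from -0.211 to 0.271 percentage points for Homo minus WT, -0.730 to -0.247 for Het minus WT and 0.256 to 0.721 for Homo minus Het. Of the log2 fold changes given with statistics, 145 of 146 kept their direction scaled by TMM and 155 of 160 within the set. Those that turned were mt-Nd6 in Homo against Het without Homo 3 (-0.00637 scaled by TMM, range -0.00637 to 0.20 over libraries left out, and -0.0099 within the set, range -0.0099 to 0.18) and mt-Co2 within the set. mt-Co2 was 0.00969 in Homo against Het without Homo 4 (range -0.0887 to 0.00969). With copies added it was 0.0173 in Homo and 0.0137 in Het against WT, and 0.00357 in Homo against Het, an alternative chosen after seeing the data. Counts of all genes called moved more. In the same order, DESeq2 called 61, 32 and 15 where edgeR called 36, 9 and 5. Without the low-count filter Het against WT had 23. The replicate block, over libraries 1 to 4 of each group, gave 20 in Homo against WT and 2 in Homo against Het. Same-numbered libraries correlated between -0.0918 and 0.149, over 0.1 in 2 of 12 pairs. Libraries of different numbers were not compared in this way, so whether the numbers pair the libraries was not settled. Only the 2 groups compared gave 2 in Homo against Het. Leaving out each library gave 23 (without Homo 1) to 33, 8 to 10, and 4 to 7. The causes were not tested. Counting alone gives a coefficient of variation of at most 0.655% for the 15 abundant genes.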

Other observations

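The share of mt-Rnr1 within the mitochondrial counts went with the share of all counts held by 3 abundant non-coding RNAs from nuclear genes, Rn7s1, Rn7s2 and Rn18s-rs5, a relation looked for after the data were seen. Those 3 RNAs held 10.1% ± 1.34 of all counts in WT (SD, n = 6), 9.85% ± 0.783 in Het and 8.62% ± 1.26 in Homo (n = 4 each). Over the 14 libraries Pearson's r for mt-Rnr1 was 0.731 (permutation p = 0.00257, adjusted 0.00514 over 2 relations) and Spearman's rho 0.626 (permutation p = 0.0186, adjusted 0.0373). Without Homo 1 and WT 3, the libraries farthest from the median, r was 0.820 over 12, and within the 6 WT libraries it was 0.900. For mt-Rnr2 r was 0.689 (permutation p = 0.00685, adjusted 0.00685) and rho 0.508 (permutation p = 0.0642), with r at 0.530 without those libraries and 0.544 within WT. Het and Homo have too few libraries for a value of their own. The adjustment covers 2 relations and not the search that led to them, and the permutation ran over all 14 libraries without regard to genotype. The p-values therefore describe a relation picked from these same values and are no independent test of it.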
